A study of Mus musculus with 4 samples.

Results

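Exhausted-type CD8 T cells were taken from 4 single-cell libraries of immune cells of B16F10-OVA tumours, a mouse melanoma line that carries the model antigen ovalbumin. The members were chosen by measured values: a cell was a member when it held at least 2 unique molecular identifiers (UMIs, counts of single RNA molecules) of Cd3d, Cd3e and Cd3g together, at least 2 of Cd8b1, at least 1 of Pdcd1 and at least 1 of Lag3, Havcr2 and Tox together. Cells with a UMI of the NK cell gene Ncr1, over 2 UMIs of C1qa, C1qb and Csf1r, over 3 of the cell cycle genes Mki67, Top2a, Ube2c and Birc5, or over 1 of Ccl1, Nrn1 and Penk were left out. There were 324 members among 11224 cells kept, and among 1308 cells that met the limits on CD3, Cd8b1, Ncr1 and macrophage genes and are called CD8 T cells here.

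The hosts were wild-type C57BL/6 mice or miR-155 TCKO mice, a T cell conditional knockout of the microRNA, named knockout below. What drives the deletion is not given in the sources used here. All hosts received 1000000 B16F10-OVA cells under the skin, and tumours were taken at day 9 or day 12. The tumours of more than 4 mice were pooled for each genotype and day and sorted for live CD45-positive cells, so there was 1 library per group and no replicate. Differences between groups hold for these libraries and not for mice. The libraries held 1778 to 3749 barcodes with 18783490 to 33902064 UMIs, and any pair of libraries shared 4 to 16 barcode sequences.

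T cells that meet their antigen over and over, as in tumours and chronic infection, enter a state known as exhaustion, with lasting expression of inhibitory receptors and a changed output of cytokines. PD-1 (the product of Pdcd1), LAG-3 and TIM-3 (Havcr2) are such receptors, and TOX is a nuclear factor that sustains the state. A less differentiated part of the exhausted pool expresses the transcription factor TCF-1 (Tcf7), and a more differentiated part expresses TIM-3 and granzymes. MiR-155 is a microRNA that activated T cells induce and that lowers transcripts with matches to its seed.

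The sequence of the deleted microRNA and the matches to it in reported targets are shown because genotype is the main variable between these cells. RefSeq places mature mmu-miR-155-5p at chr16:84714143-84714165 of GRCm38.p6, plus strand. Its seed, bases 2 to 8, is in capitals.
mmu-miR-155-5p: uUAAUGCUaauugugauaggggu
The complementary letters AGCATTA were searched on the transcript strand of annotated 3′ untranslated regions of GENCODE on GRCm38, as was AGCATTAA, which holds the first motif and a further A. Of 21028 such regions, 8.28% held AGCATTA and 2.99% held AGCATTAA. In a list of 21 reported targets 15 held the shorter and 9 the longer motif. These counts are a description. The regions were not matched for length, and whether such motifs were the ground for reporting a target was not examined. The sites below, with the motif in capitals, belong to the listed targets described with the knockout cells. Each lies in the 3′ untranslated region of its gene and is written 5′ to 3′ on the transcript strand. The Socs1 site is at chr16:10784206-10784228 on the minus strand and the Tspan14 site at chr14:40907405-40907427 on the minus strand. The Inpp5d site is at chr1:87719823-87719845 and the Ets1 site at chr9:32757193-32757215, both on the plus strand.
Socs1: ctgccgctgtgccgcAGCATTAA
Tspan14: gcctcgtttctccatAGCATTAA
Inpp5d: gagatgtttttaaaaAGCATTAA
Ets1: cactctgggttttaaAGCATTAA

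The members were plentiful in the wild-type libraries and scarce in the knockout ones. The wild-type library held 260 at day 9 and 50 at day 12, against 13 and 1 in the knockout libraries. They made up 35.8% of CD8 T cells in the wild-type library at day 9 (95% Clopper-Pearson interval 32.3% to 39.4%, 726 cells) and 23.3% at day 12 (17.8% to 29.5%, 215 cells). In the knockout libraries they were 4.05% at day 9 (2.17% to 6.83%, 321 cells) and 2.17% at day 12 (0.055% to 11.5%, 46 cells). With all UMIs the intervals of the genotypes did not overlap at either day, and they cover counting error only. The rule is built on detection, so depth bears on it, and the median CD8 T cell held 12690 UMIs in wild-type day 9 against 4439 to 5097 elsewhere. With each cell thinned to 3000 UMIs and shallower cells left out (0, 3, 32 and 5 CD8 T cells of wild-type day 9, knockout day 9, wild-type day 12 and knockout day 12), the shares were 42.1%, 2.46%, 19.5% and 2.78% in that order. The whole rule was applied again to the thinned counts, so the classes did not hold the same cells. In wild-type day 9, 580 cells then counted as CD8 T cells. Of all cells kept, the members were 14.6% and 1.36% in wild-type and 0.348% and 0.0491% in knockout tumours at days 9 and 12. A class sorted by CD45 from pooled tumours gives shares, not numbers per tumour.

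**Figure D1:**
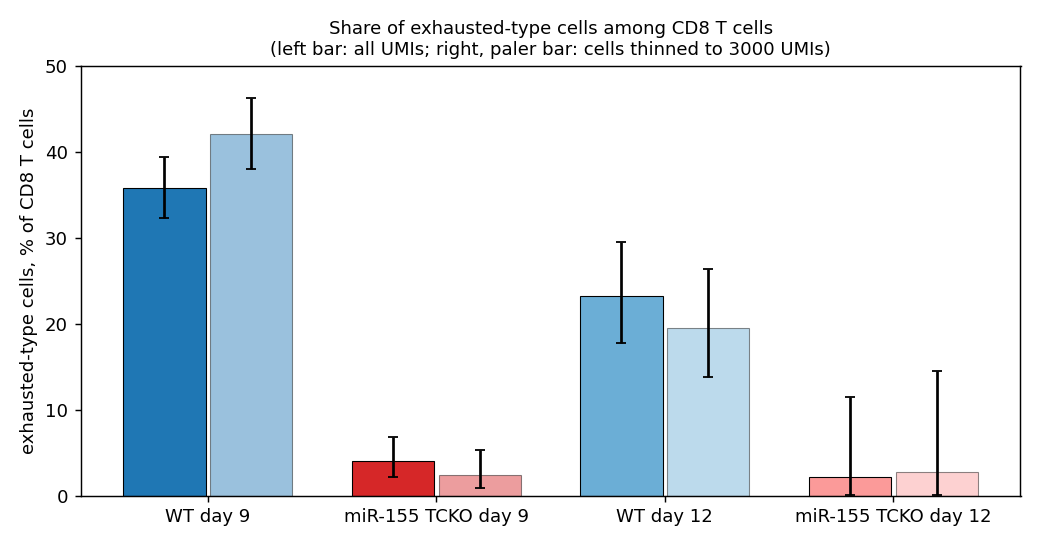
Share of exhausted-type cells among CD8 T cells (y axis, percent) in the 4 libraries (x axis), with all UMIs (left bars) and with each cell thinned to 3000 UMIs (paler right bars). Error bars are 95% Clopper-Pearson intervals; the wild-type bars stand at 35.8% and 23.3% with all UMIs and the knockout bars at 4.05% and 2.17%.

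The genes that chose the cells are given as description. In the wild-type library at day 9 a member held a median of 4 Pdcd1 UMIs (lowest 1, highest 27) and 5 of Lag3 (0 to 28). The medians were 2 for Tox (highest 13) and 1 for Havcr2 (highest 10). In knockout members at day 9 the medians were 3 for Pdcd1, 3 for Lag3, 1 for Tox and 0 for Havcr2, and in wild-type members at day 12 they were 2, 2, 1 and 0. Lag3 was the most widely detected of the genes beside Pdcd1, in 95.8% of members of wild-type day 9, 84.6% of knockout day 9 and 84.0% of wild-type day 12. Havcr2 was the least, in 51.2%, 23.1% and 18.0% of them. All of Lag3, Havcr2 and Tox were detected together in 110 of 260 wild-type cells at day 9 (42.3%), in 3 of 13 knockout cells and in 5 of 50 wild-type cells at day 12. The median member held 9818.5, 9127 and 4950 UMIs in these libraries, and the part of depth in these shares of cells was not tested.

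Near the threshold, Pdcd1 stood at exactly 1 UMI in 36 of 260, 4 of 13 and 19 of 50 members of wild-type day 9, knockout day 9 and wild-type day 12. Just outside it, 8, 13 and 15 non-cycling cells held Pdcd1 with no UMI of the other genes, and 45, 37 and 21 held some of Lag3, Havcr2 or Tox with no Pdcd1. The single knockout member at day 12 held 4 UMIs of Pdcd1, 3 of Lag3 and 0 of Tox and Havcr2. It held Nkg7, a granule gene of cytotoxic cells, at 18 UMIs, and 0 UMIs of Gzmb, Gzmk, Ifng and Ccl3.

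**Figure D2:**
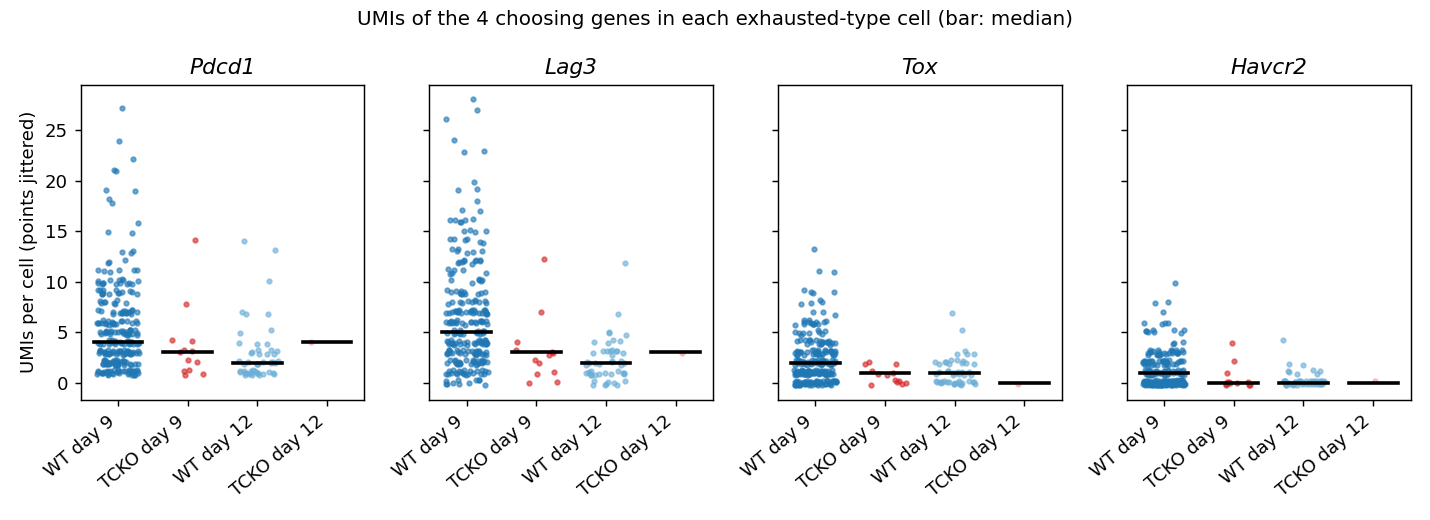
UMIs per cell (y axis) of Pdcd1, Lag3, Tox and Havcr2 in each member (points, jittered) of the 4 libraries (x axis), with the median as a bar. The wild-type library at day 9 reaches 27 UMIs of Pdcd1 and 28 of Lag3, and the median of Havcr2 is above 0 in that library alone.

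Of the CD8 T cell markers with a row in the files the rule itself used all but Cd8a. Cd8a was detected in 257 of 260, 13 of 13 and 47 of 50 cells of wild-type day 9, knockout day 9 and wild-type day 12. The single knockout member of day 12 held 0 UMIs of Cd8a and of Cd3e, with 8 of Cd8b1 and 14 of Cd3d. Melanoma markers (Pmel, Mlana, Dct and Tyrp1) were at 0 UMIs in all libraries, and B cell markers at 0 to 1. Other immune cells were less completely absent. The 8 monocyte or macrophage markers summed to 325, 245 and 1785 UMIs per 1000000 UMIs of the members in wild-type day 9, knockout day 9 and wild-type day 12. Over 5 UMIs of the MHC class II genes H2-Aa, H2-Ab1 and H2-Eb1, or over 5 of Lyz2, Apoe, Tmem176b, Ccl17, Il4i1 and Fscn1, were held by 31 of 260 (11.9%), 1 of 13 and 10 of 50 (20%) members. A UMI of Foxp3, which marks regulatory T cells, was held by 19 members and a UMI of Cd4 by 15, of which 6 held both, all in the wild-type library at day 9; 1 knockout member also held Cd4. Results were therefore recomputed without the members and comparison cells that held myeloid transcripts (an alternative added with the data in view).

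Levels below are UMIs per 1000000 UMIs summed over the cells of a class in a library (CPM). Intervals on counts are exact Poisson and those on ratios exact conditional intervals, both at 95% and for counting error alone.

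The closest CD8 T cells without PD-1 were those that met the same limits with Pdcd1 at 0 and at least 1 UMI of Gzmk, the gene of granzyme K (31, 15 and 23 cells in wild-type day 9, knockout day 9 and wild-type day 12). Both classes came from the same 3 libraries, and the comparison used the summed counts with library as a block. The members had more Ccl3 and Ccl4 but less Ccl5, and less Klf2, Irf7 and Irf1. Of 1924 genes tested outside the rule, 16 (0.832%) were higher and 19 (0.988%) lower in the members, 1.82% in all, at an adjusted p under 0.05 (edgeR quasi-likelihood test).

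Ccl3, which encodes an inflammatory chemokine, stood at 1227, 6651 and 1064 CPM in the members of wild-type day 9, knockout day 9 and wild-type day 12. In the Gzmk-positive cells it stood at 83.9, 20.4 and 52.8 CPM. The classes did not overlap, and the log2 fold change was 5.12 (SE 0.58, edgeR adjusted p = 0.00411). Ccl4, another inflammatory chemokine gene, had 1781, 12125 and 3708 CPM in members against 268, 71.3 and 106 (log2 4.71, SE 0.67, edgeR adjusted p = 0.0126). Serpinb6b, a serine protease inhibitor gene, had 205, 355 and 301 CPM against 42.0, 10.2 and 26.4 (log2 3.12, SE 0.39, edgeR adjusted p = 0.00763). In knockout day 9 and wild-type day 12, 1 cell held 76.8% and 58.7% of the Ccl4 UMIs of the members, and without the top cytokine members their levels were 3147 and 1554 CPM. The 3 calls held in 14 of 15 alternatives each, and the exception was the thinning of all cells to 3000 UMIs, which left wild-type day 9 and day 12. Classes were assigned again on the thinned counts. A member that lost its Pdcd1 UMIs could thus enter the Gzmk-positive class, and a cycling cell could become a member. The log2 fold changes were then 1.35 for Ccl3, 0.67 for Ccl4 and 0.60 for Serpinb6b, and 0 genes were higher and 1 lower, beside 108 at an unadjusted p under 0.05 (edgeR). Before thinning the median member held 9818.5, 9127 and 4950 UMIs and the median Gzmk-positive cell 4843, 4903 and 3873.

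Tnfrsf9, which encodes the costimulatory receptor 4-1BB, was at 318, 355 and 133 CPM in members and at 26.2, 91.6 and 70.4 in the Gzmk-positive cells (log2 2.23, SE 0.40, edgeR adjusted p = 0.028), a call that held in 8 of 15 alternatives. The glycolytic genes Gapdh and Tpi1 also rose. Gapdh had 3200, 3262 and 3331 CPM against 1899, 1660 and 2216, so the members of every library lay above every Gzmk-positive group. All 9 glycolysis genes tested had a positive fold change, with a median of log2 0.73 beside -0.00 for all genes tested, and 2 passed. Among genes of DNA replication Mcm6 and Dut rose (log2 2.19 and 1.63), although both classes were gated to be non-cycling.

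Ccl5, a chemokine of effector and memory CD8 T cells, was among the genes that fell. It had 11989.5, 3073 and 12501 CPM in members and 17919, 7168 and 16305 in Gzmk-positive cells (log2 -0.76, SE 0.12, edgeR adjusted p = 0.0267). Within each library the members were lower. Klf2, a factor of quiescence and of exit from tissue, had 125, 23.7 and 350 CPM against 462, 265 and 739 (log2 -1.75, SE 0.29, edgeR adjusted p = 0.0275). Irf7, an amplifier of the interferon response, had 97.4, 31.6 and 118 CPM against 289, 143 and 246, with no overlap of the classes (log2 -1.51, SE 0.25, edgeR adjusted p = 0.0267). Interferon response genes had 4 of 19 tested lower, namely Irf7, Irf1, Igtp and Ly6c2, and 0 higher, with a median of log2 -1.02. The chemokine receptor gene Cxcr3 and the integrin gene Itgb7 fell too. Ifitm2, Ifitm3, H2-DMa, H2-DMb1 and Alox5ap, which macrophages express, fell as well, and without cells that held myeloid transcripts Ifitm3 had log2 -0.08 and did not pass, while the other 4 were no longer tested.

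Several genes known from exhausted T cells did not pass in this comparison. Ctla4 had a log2 fold change of 0.17 (SE 0.35), Cd160 0.94 (SE 0.38), Cxcr6 0.38 (SE 0.19) and Gzmb 1.11 (SE 0.34). Ifng stood at 2.94 (SE 0.78), Tcf7 at -1.54 (SE 0.48) and Il7r at -1.51 (SE 0.40). Of the inhibitory receptors outside the rule 0 of 7 tested passed, and of the transcription factors of exhaustion and effector cells 0 of 10.

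The 35 calls depended on the cells and libraries used. Without cells holding myeloid transcripts 37 of 1615 genes (2.29%) were higher and 40 (2.48%) lower, with Ifng, Xcl1, Ldha and Pgam1 among the higher and Il7r, Gbp2, Gbp7 and Ifit1 among the lower. Without the member of each library that held most cytokine and chemokine UMIs, 4 were higher and 2 lower. Without wild-type day 9 there were 6 higher and 2 lower, without knockout day 9 12 and 10, and without wild-type day 12 19 and 31. The same 4 and 2 counts came without the member of each library with most Gzmb and Ifng UMIs. Tnfrsf9, Ccl5, Klf2 and Irf7 did not pass without wild-type day 9, without either kind of top member, after thinning, or with no library block.

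**Figure D3:**
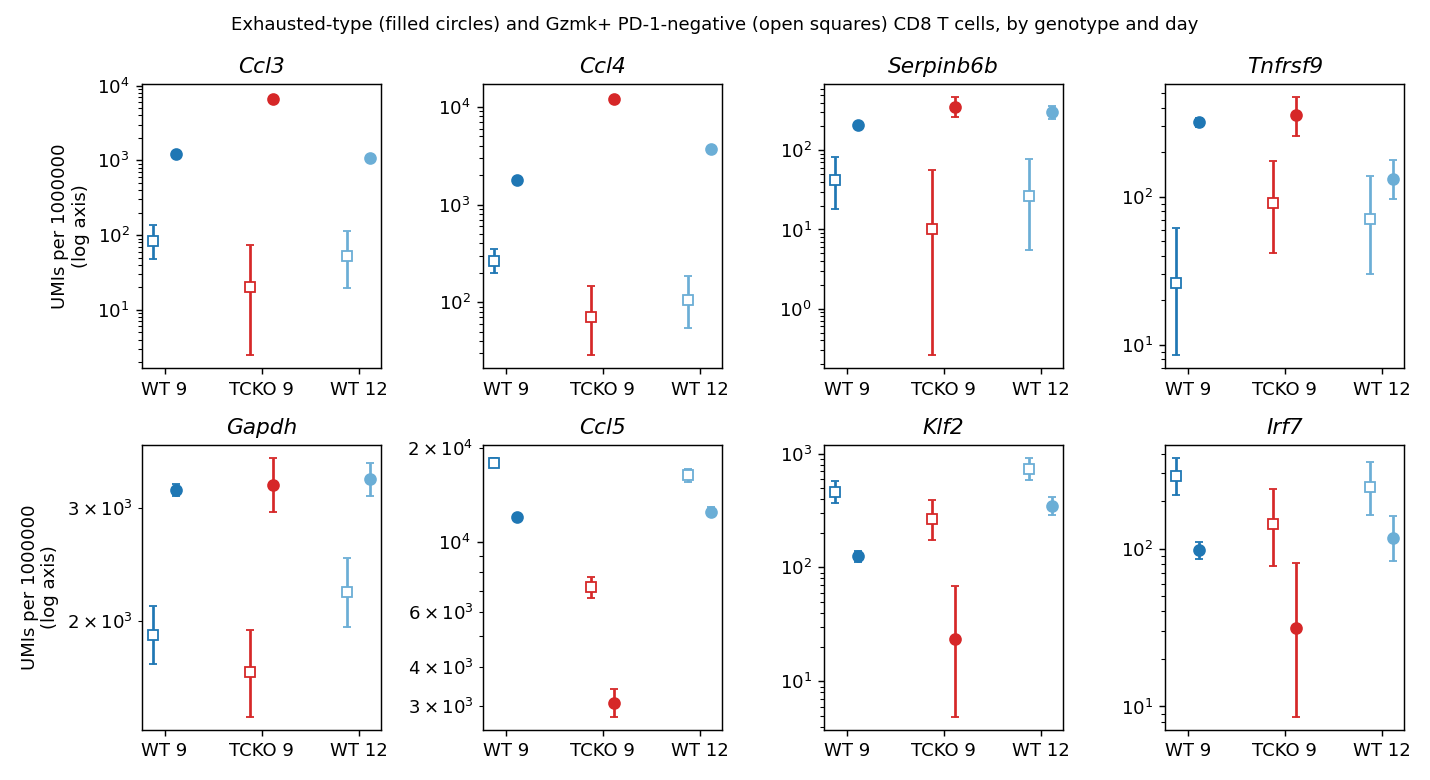
Level of 8 genes in UMIs per 1000000 UMIs of the class (y axis, log scale) in exhausted-type cells (filled circles) and Gzmk-positive PD-1-negative cells (open squares) of wild-type day 9, knockout day 9 and wild-type day 12 (x axis), with 95% Poisson intervals. Ccl3 and Ccl4 lie higher and Ccl5, Klf2 and Irf7 lower in the exhausted-type cells of each library.

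Within the members, cells with and without a Havcr2 UMI differed in a small number of genes, among them some of the progenitor and of the differentiated state. The split left 133 cells with and 127 without Havcr2 in wild-type day 9 and 9 with and 41 without in wild-type day 12; the knockout libraries had too few. Of 5637 genes 7 (0.124%) were higher and 9 (0.16%) lower in Havcr2-detected members, 0.284% in all (edgeR quasi-likelihood test with library as a block, adjusted p under 0.05). The test has 1 residual degree of freedom, and its second library has 9 cells on one side.

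Tcf7, the gene of TCF-1, fell furthest in that comparison. It had 4.65 and 0 CPM in Havcr2-detected cells of day 9 and day 12, and 48.0 and 32.9 CPM in the others. It was detected in 7 of 133 against 22 of 127 cells at day 9 and in 0 of 9 against 6 of 41 at day 12. The log2 fold change was -3.45 (SE 0.59, edgeR adjusted p = 0.00542), and the call held in 7 of 10 alternatives. Dapl1, a gene of naive and memory T cells, had 6.39 and 0 CPM against 54.0 and 45.2 (log2 -3.20, SE 0.54, edgeR adjusted p = 0.0051). Few cells carried it, 4 of 133 against 9 of 127 at day 9 and 0 of 9 against 2 of 41 at day 12. Ccr7, the lymph node homing receptor, had 17.4 and 56.5 CPM against 129 and 189 (log2 -2.70, SE 0.33, edgeR adjusted p = 0.000144). Without cells holding myeloid transcripts its log2 fold change was -1.85 and did not pass (edgeR adjusted p = 0.119). These were 3 of 14 progenitor, naive and memory genes tested. Slamf6, another gene of progenitor cells, had log2 -1.56 (SE 0.43) and did not pass.

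Of 14 cytotoxic genes tested 1 was higher in Havcr2-detected cells, Gzmb, and of 10 cytokine and chemokine genes 2, Ifng and Ccl3, with 0 lower in either list. Gzmb, which encodes granzyme B, had 2294 and 4489 CPM in Havcr2-detected cells against 1266 and 978 (log2 1.45, SE 0.29, edgeR adjusted p = 0.0298). It was detected in 129 of 133 against 107 of 127 cells at day 9 and in 9 of 9 against 33 of 41 at day 12. Ifng had 363 and 814 CPM against 199 and 127 (log2 1.51, SE 0.30, edgeR adjusted p = 0.0275), Ccl3 1702 and 2194 against 527 and 654 (log2 1.66, SE 0.24), and Tnfrsf9 394 and 351 against 207 and 53.4 (log2 1.36, SE 0.29). The groups did not overlap for any of these 4 genes. Ifng was detected in 117 of 133 against 79 of 127 cells at day 9, but in 4 of 9 against 19 of 41 at day 12. At day 12, 1 of the 9 Havcr2-detected cells held 257 of their 397 Gzmb and 50 of their 72 Ifng UMIs. Without the member of each library with most Gzmb and Ifng UMIs that group had 2074 CPM of Gzmb and 326 of Ifng, and the log2 fold changes were 0.83 and 0.90, both still called (edgeR). Gzmb, Ifng and Tnfrsf9 did not pass after thinning, without cells holding Foxp3 or Cd4, or without the member with most Ifng, Xcl1, Ccl3 and Ccl4 UMIs of each library, which also ended the Ccl3 call. Serpine2, a secreted inhibitor of serine proteases, was the gene with the largest rise (log2 2.37, SE 0.34, edgeR adjusted p = 0.000952). The glycolytic gene Tpi1 and the lactate carrier gene Slc16a3 completed the 7. Prf1, the gene of perforin, had log2 1.44 (SE 0.39) and Cd160 0.88 (SE 0.32), and neither passed; Gzmk had -0.38 (SE 0.24), Eomes -0.35 (SE 0.37), Entpd1 0.24 (SE 0.39) and Ctla4 0.35 (SE 0.37).

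Of the genes lower with Havcr2, Apoe, Lyz2, Cd63, Ramp3 and Fabp5 are expressed by macrophages or dendritic cells. Lyz2 and Apoe are among the genes that mark cells holding myeloid transcripts, so their values without such cells follow from that choice. Cd63 and Ramp3 were no longer tested without them, and Fabp5 had log2 0.42 and did not pass. In that comparison 13 of 5245 genes (0.248%) were higher and 12 (0.229%) lower, now with Ccl4 and Spp1 higher and Slamf6, Klf2, Ifit1 and Ifit3 lower. Havcr2-detected cells were also deeper, with medians of 11260 against 8180 UMIs per cell at day 9 and 6925 against 4904 at day 12. After thinning to 3000 UMIs, with members and split set again on the thinned counts, 2 genes were higher and 5 lower. With no library block 0 genes passed in either direction, beside 109 at an unadjusted p under 0.05 (edgeR) and 3 calls by DESeq2 with the block; without the member of each library with most cytokine UMIs, 1 was higher and 6 lower.

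PD-1-positive CD8 T cells with over 3 UMIs of the cell cycle genes were the cycling counterpart of the members. There were 201 such cells in wild-type day 9 and 18 in wild-type day 12. The median cycling cell held 21123 and 9913.5 UMIs at day 9 and day 12, and the median member 9818.5 and 4950. The limit of 3 UMIs was not scaled to depth, and the part of depth in this comparison was not tested. The members had more of the progenitor and memory transcripts and more interferon response transcripts than the cycling cells. Of 7853 genes 396 (5.04%) were higher and 643 (8.19%) lower in the members, 13.2% in all, and without cells holding myeloid transcripts the shares were 4.3% and 6.8% (edgeR quasi-likelihood test, library as a block, 1 residual degree of freedom). The split used cell cycle genes, so the 23 of 25 further cell cycle genes that fell, and the 10 largest decreases (Sapcd2, Cdc25c, Plk1, Ankle1, Kif14, Pif1, Anln, Mxd3, Casc5 and Cenpf), restate it.

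Among 15 progenitor, naive and memory genes tested 7 were higher and 0 lower, with a median of log2 1.17 beside 0.02 for all genes. Tcf7 had 22.2 and 24.1 CPM in members of day 9 and day 12 against 4.24 and 4.79 in cycling cells (log2 2.40, SE 0.44, edgeR adjusted p = 3.3e-05). Il7r, the receptor chain for the survival cytokine interleukin 7, had 30.5 and 24.1 CPM against 6.25 and 4.79 (log2 2.32, SE 0.39, edgeR adjusted p = 6.63e-06). Slamf6 had 29.1 and 72.3 CPM against 8.48 and 38.3 (log2 1.63, SE 0.32, edgeR adjusted p = 0.00013). At day 12 the cycling values rest on 1 UMI each for Tcf7 and Il7r. Dapl1 was called as higher (log2 2.55) from day 9 alone, with 25.6 against 1.78 CPM, while at day 12 it had 33.2 against 43.1. In the interferon response list 10 of 24 tested were higher and 0 lower, among them Zbp1, Gbp2 and Isg20.

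Ccl5 was higher in members at both days, with 11989.5 and 12501 CPM in members against 4248 and 3513 in cycling cells (log2 1.75, SE 0.14, edgeR adjusted p = 5.46e-16). Cxcr6, the receptor for a chemokine of tumour myeloid cells, had 936 and 651 CPM against 534 and 412 (log2 0.83, SE 0.17, edgeR adjusted p = 0.000212), and Cd160, an inhibitory receptor, 143 and 142 against 93.0 and 90.9 (log2 0.68, SE 0.19). Of 16 inhibitory receptors 5 were higher, Cd160, Cd38, Klrg1, Klrd1 and Vsir. Gzmb was lower in members, with 1879 and 1914 CPM against 2510.3 and 3853 (log2 -0.61, SE 0.15, edgeR adjusted p = 0.00241), but had log2 -0.16 and did not pass without cells holding myeloid transcripts. Ifng was called as lower (log2 -1.79, SE 0.42) although it was higher in members at day 9, with 297 against 229 CPM; at day 12 it had 310 against 6820. Entpd1, Eomes, Tbx21, Ctla4, Gzmk and Prf1 had log2 values of 0.15 to 0.40 and did not pass. Ccl17, Ramp3, Il4i1, Cd63, Cacnb3 and Il1b, genes of mature dendritic or other myeloid cells, were among the 10 largest increases and were no longer tested once cells with myeloid transcripts were left out. Tcp11l2, Dapl1 and 6330403K07Rik were still called then, and Gm13546, the last of the 10, was no longer tested.

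**Figure D4:**
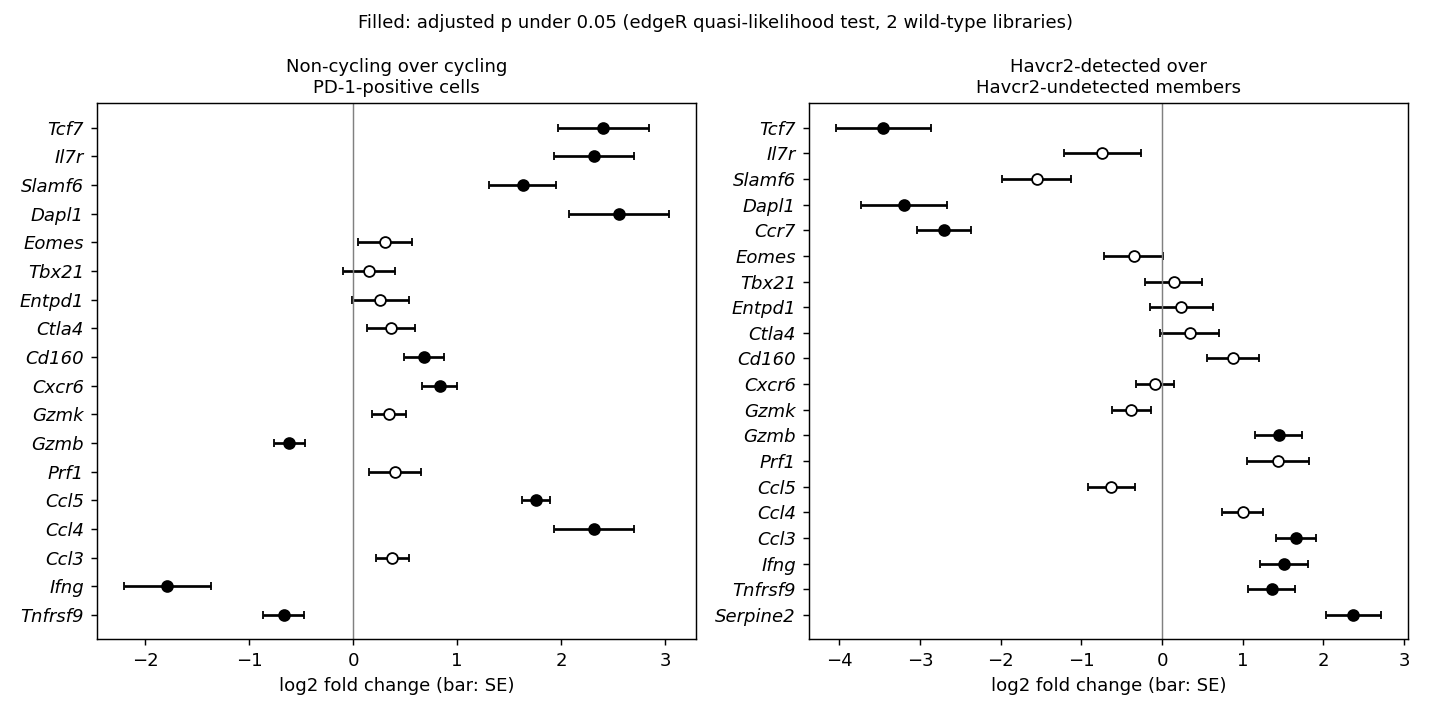
Log2 fold changes (x axis, bars are SE) of progenitor, receptor, granzyme and cytokine genes (y axis) between non-cycling and cycling PD-1-positive cells (left) and between members with and without a Havcr2 UMI (right), in the wild-type libraries of day 9 and day 12. Filled points have an adjusted p under 0.05 (edgeR); Tcf7 stands at 2.40 on the left and -3.45 on the right.

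In wild-type members Gzmk was higher at day 12 than at day 9, Tnfrsf9, Mt1, Mt2, Klrd1 and Klrc1 were lower, and Ccl5 was at nearly the same level. With 1 library a day there is no test, and day and preparation cannot be told apart. Of 7692 genes with at least 20 UMIs over the pair, 6.49% were at least 2-fold higher and 9.63% at least 2-fold lower at day 12. Gzmb had 1879 CPM at day 9 and 1914 at day 12 (log2 ratio 0.03, interval -0.09 to 0.15), and Ccl5 11989.5 and 12501 (0.06, 0.01 to 0.11). Ifng had 297 and 310 CPM (0.06, -0.24 to 0.36). At day 12, however, 1 cell held 257 of 635 Gzmb and 50 of 103 Ifng UMIs, and the median per cell was 12 Gzmb UMIs at day 9 and 3 at day 12. Without the member of each library with most Gzmb and Ifng UMIs the log2 ratio was -0.58 (-0.73 to -0.43) for Gzmb and -0.77 (-1.20 to -0.37) for Ifng, both lower at day 12. Ifng was detected in 75.4% of members at day 9 and in 46.0% at day 12. Gzmk had 192 and 476 CPM (1.31, 1.04 to 1.57) and was detected in 68.5% and 72.0% of cells. Tnfrsf9 had 318 and 133 CPM (-1.26, -1.73 to -0.83), detected in 170 of 260 and 10 of 50 cells, and a ratio of -2.01 without the member of each library with most Gzmb and Ifng UMIs.

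Of 16 inhibitory receptors outside the rule 6 were at least 2-fold lower at day 12 and 1 higher, with a median of log2 -0.69 beside 0.05 for all genes, or -0.57 with genes at 0 set at 3 UMIs. The lower ones included the lectin-like receptor genes Klrd1, with 902 and 229 CPM (-1.98, -2.33 to -1.65), and Klrc1, with 324 and 93.4 (-1.79, -2.36 to -1.28), and Cd96, with 81.8 and 27.1 (-1.59, -2.74 to -0.64). Without cells holding myeloid transcripts 4 of 14 were lower and 0 higher, where 10.4% of all genes were lower and 8.78% higher. Of 15 progenitor, naive and memory genes 5 were higher and 1 lower. Slamf6 had 29.1 and 72.3 CPM (1.31, 0.59 to 1.98) and Klf2 125 and 350 (1.48, 1.17 to 1.79), while Tcf7 was at 22.2 and 24.1 (0.12, -1.15 to 1.19). Among 15 glycolysis and 22 respiratory chain genes 0 passed 2-fold.

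Among single genes, Mt2 and Mt1 encode metallothioneins, which bind zinc. Mt2 had 404 UMIs in 67 cells at day 9 and 0 UMIs at day 12, at least 15.5-fold lower against a floor of 3 UMIs, and Mt1 had 259 and 36.2 CPM. Nrgn, a calmodulin-binding protein gene, had 410 UMIs in 121 of 260 cells and 0 in 50 cells (at least 15.7-fold lower). Hspa1a, a heat shock gene, had 187 UMIs and 0 (at least 7.17-fold lower), and Ifi205, Il1r2, Gldc, Itih5 and Tnnt1 had 73 to 138 UMIs at day 9 and 0 at day 12. The genes with the highest ratios were largely those of myeloid cells. Ccl22 had 82 UMIs at day 12, all in 3 cells, and Lyz2 had 271 CPM at day 9 and 1414 at day 12; Apoe, Ifitm1, Ccl6, Cxcl16, Casp1 and Gpr18 had ratios of log2 2.37 to 4.47. Gpr18 and Casp1 were spread over 13 and 29 of 50 cells at day 12. The 8 monocyte or macrophage markers stood at 325 and 1785 CPM in these libraries, and their part in the ratios was not tested.

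The 13 knockout members at day 9 lacked granzyme K transcripts, had less granzyme B, less Ccl5 and fewer interferon response transcripts than the 260 wild-type members, and more UMIs of Nr4a1, Rgcc and several memory genes for their total. With 1 library per genotype there is no test, and the class totals were 126599 and 2885937 UMIs. Of 7564 genes 17.2% were at least 2-fold higher and 15.1% at least 2-fold lower, a wide background beside a knockout total so small that few UMIs set the ratio of most genes. TMM scaling, in place of the class total, lowered the log2 ratios by 0.27, and 11.4% of genes were then higher and 20.9% lower.

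The targeted locus could not be judged at this depth. Mir155hg, the host transcript of miR-155, had 31 UMIs in 26 of 260 wild-type cells at day 9 (10.7 CPM) and 0 in the 13 knockout cells, where 3 UMIs correspond to 23.7 CPM. At day 12 it had 2 UMIs in 50 wild-type cells and 0 in the single knockout cell. Whether the deletion removes the counted end of that transcript is not given in the sources used here. Another difference of genotype was not particular to the members. Rpl29, a ribosomal protein gene, had 2292 CPM in wild-type and 134 in knockout members at day 9, and Gm10709 26.3 and 1201. Macrophages of the same libraries, gated with no CD3 UMI, had 1352 and 126 CPM of Rpl29 and 15.1 and 815 of Gm10709.

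Of 15 cytotoxic genes 5 were at least 2-fold lower and 1 higher, beside 15.1% and 17.2% of all genes. Gzmk had 555 UMIs in 178 of 260 wild-type members and 0 in 13 knockout members, at least 8.12-fold lower against a floor of 3 UMIs. The single knockout member of day 12 also held 0, whereas Gzmk stood at 476 CPM in wild-type members of day 12. Gzmb had 1879 CPM in wild-type and 513 in knockout members of day 9 (log2 ratio -1.87, interval -2.25 to -1.52) and was detected in 236 of 260 and 6 of 13 cells, with 64.6% of the knockout UMIs in 1 cell. Gzma had 138 and 15.8 CPM (-3.13, -6.18 to -1.27), and Prf1 64.1 and 103 (0.68, -0.26 to 1.49). Eomes, a T-box factor of cytotoxic and exhausted cells, had 116 UMIs and 0 (at least 1.70-fold lower), and Entpd1, which encodes CD39, 129 and 0 (at least 1.89-fold lower). Ccl5 had 11989.5 and 3073 CPM (-1.96, -2.11 to -1.82) and Cxcr6 936 and 395 (-1.24, -1.68 to -0.84). Tnfrsf9 had 318 and 355 CPM (0.16, -0.31 to 0.59) and Ctla4 71.0 and 63.2 (-0.17, -1.40 to 0.84). Several of these decreases were not particular to the members. In Gzmk-positive PD-1-negative cells of wild-type and knockout day 9 Ccl5 had 17919 and 7168 CPM, Cxcr6 766 and 255, and Gzmb 871 and 519. Entpd1 had 13 UMIs and 0 there, while Eomes had 57.7 and 50.9 CPM.

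The interferon response list had 15 of 24 members at least 2-fold lower and 0 higher in knockout cells, with a median of log2 -1.38 beside 0.15 for all genes, or -0.88 with genes at 0 set at 3 UMIs. Zbp1 had 228 CPM in wild-type and 31.6 in knockout members (-2.85, -4.73 to -1.49), Isg15 180 and 31.6 (-2.51, -4.39 to -1.14), and Psmb9, an immunoproteasome subunit, 525 and 237 (-1.15, -1.72 to -0.63). Isg20 had 242 UMIs in 120 wild-type cells and 0, and Ifit1 203 UMIs in 70 cells and 0. Without cells holding myeloid transcripts 13 of 23 were lower, where 14.9% of all genes were. In Gzmk-negative PD-1-negative CD8 T cells of the same libraries (74 and 255 cells), 2 of 23 were at least 2-fold lower and 1 higher, with a median of log2 -0.11 beside -0.14 for all genes, of which 5.59% were lower. In the Gzmk-positive PD-1-negative cells (31 and 15 cells) the list was not counted. Irf7 there had 289 CPM in wild-type and 143 in knockout day 9, beside 97.4 and 31.6 in the members. A lower Irf7 level in the knockout was thus not particular to the members. The difference between the classes was not tested, as each group is 1 library.

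MHC class II genes had 7 of 8 lower, with Cd74 at 2147 and 134 CPM, and 31 of 260 wild-type against 1 of 13 knockout members held myeloid transcripts. Class II genes are part of how those cells were defined, so the values without them (0 of 6 lower, 3 higher, Cd74 at a log2 ratio of 1.33) follow in part from that choice.

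Of 14 cytokine and chemokine genes 7 were at least 2-fold higher and 3 lower in the knockout members, beside 17.2% and 15.1% of all genes, in part through 1 cell. Of 17 dissociation and stress genes, which include immediate early genes such as Fos and Egr1, 2 were higher and 3 lower, with a median of log2 0.24. Ifng had 297 CPM in wild-type and 6059 in knockout members, yet 1 cell held 615 of the 767 knockout UMIs, and the median was 2 UMIs in wild-type and 1 in knockout cells. The same cell held 94.6% of the Xcl1, 82.8% of the Ccl3 and 76.8% of the Ccl4 UMIs. Without the top cell of each library Ifng had a log2 ratio of 2.43 (2.16 to 2.68), with 121 of the remaining 152 UMIs again in 1 cell, Ccl4 1.05 (0.89 to 1.20) and Ccl3 0.27 (0.02 to 0.51). After thinning to 3000 UMIs and a new choice of members on the thinned counts, which left 6 knockout members, the Ifng ratio was -2.21. Nr4a1, an immediate early gene of T cell receptor signalling, had 24 UMIs in 18 of 260 wild-type cells and 34 in 5 of 13 knockout cells (log2 5.01, 4.22 to 5.83), or 4.85 without the top cells. Rgcc, a regulator of the cell cycle, was detected in 25 of 260 and 9 of 13 cells (4.14, 3.48 to 4.78). Cd200 had 18.0 and 142 CPM (2.98, 2.12 to 3.78).

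Of 16 progenitor, naive and memory genes 9 were at least 2-fold higher and 1 lower, with a median of log2 1.13 beside 0.15 for all genes, of which 17.2% were higher and 15.1% lower, but on few UMIs. Bach2, a repressor that maintains memory potential, had 16 and 5 UMIs (2.83, 1.03 to 4.35), Slamf6 84 and 7 (0.93, -0.43 to 2.03) and Tcf7 64 and 5 (0.83, -0.84 to 2.13). Klf2 went the other way, with 125 and 23.7 CPM (-2.40, -4.68 to -0.84). Slamf6 is among the 9 only through the UMIs added for lists. Xcl1 is also among the 9, and 1 cell held 94.6% of its knockout UMIs. Without the top cytokine cell of each library Xcl1 had a log2 ratio of 2.35 (1.71 to 2.94). Of the 16 genes 11 were then at least 2-fold higher and 1 lower, beside 18.5% and 13.9% of all genes.

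Of 18 reported miR-155 targets with enough UMIs 7 were at least 2-fold higher and 2 lower in knockout members, beside 17.2% and 15.1% of all genes. Their median was log2 0.76 beside 0.15 for all genes, or 0.56 with genes at 0 set at 3 UMIs. Without cells holding myeloid transcripts 5 of 16 were higher and 1 lower, where 18.5% and 14.9% of all genes were. The median was then log2 0.49 beside 0.18 for all genes. Socs1, a brake on cytokine signalling whose site is printed above, had 39.2 CPM in wild-type and 79.0 in knockout members (1.01, -0.09 to 1.94). Tspan14, a tetraspanin gene, had 25.6 and 63.2 CPM (1.30, 0.04 to 2.35). Inpp5d, which encodes the phosphatase SHIP1, had 45.4 and 31.6 CPM (-0.52, -2.42 to 0.87), and the transcription factor gene Ets1 224.9 and 190 (-0.25, -0.90 to 0.34). All 4 carry the longer motif, and their ratios lie on both sides of 0. Of the other targets counted as past 2-fold, Ikbke, Il6ra and Picalm were higher and carry the shorter motif alone, and Gabarapl1 and Smad2 were higher and carry neither. Smad2, with 15.94 and 31.6 CPM, passed only with the 0.5 UMIs added for lists. Ikbke, Il6ra and Smad2 rest on 3, 4 and 4 knockout UMIs. The 2 targets counted as lower, Cebpb (17.7 and 0 CPM) and Tab2 (42.6 and 15.8 CPM), carry the longer motif. In the knockout members 3 UMIs correspond to 23.7 CPM, above the wild-type level of Cebpb, so its 0 cannot show a fall. Tab2 rests on 2 knockout UMIs. In the Gzmk-negative PD-1-negative cells 1 of 16 targets was at least 2-fold higher and 0 lower, where 2.65% of all genes were higher; there Socs1 had 100.2 and 124 CPM.

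**Figure D5:**
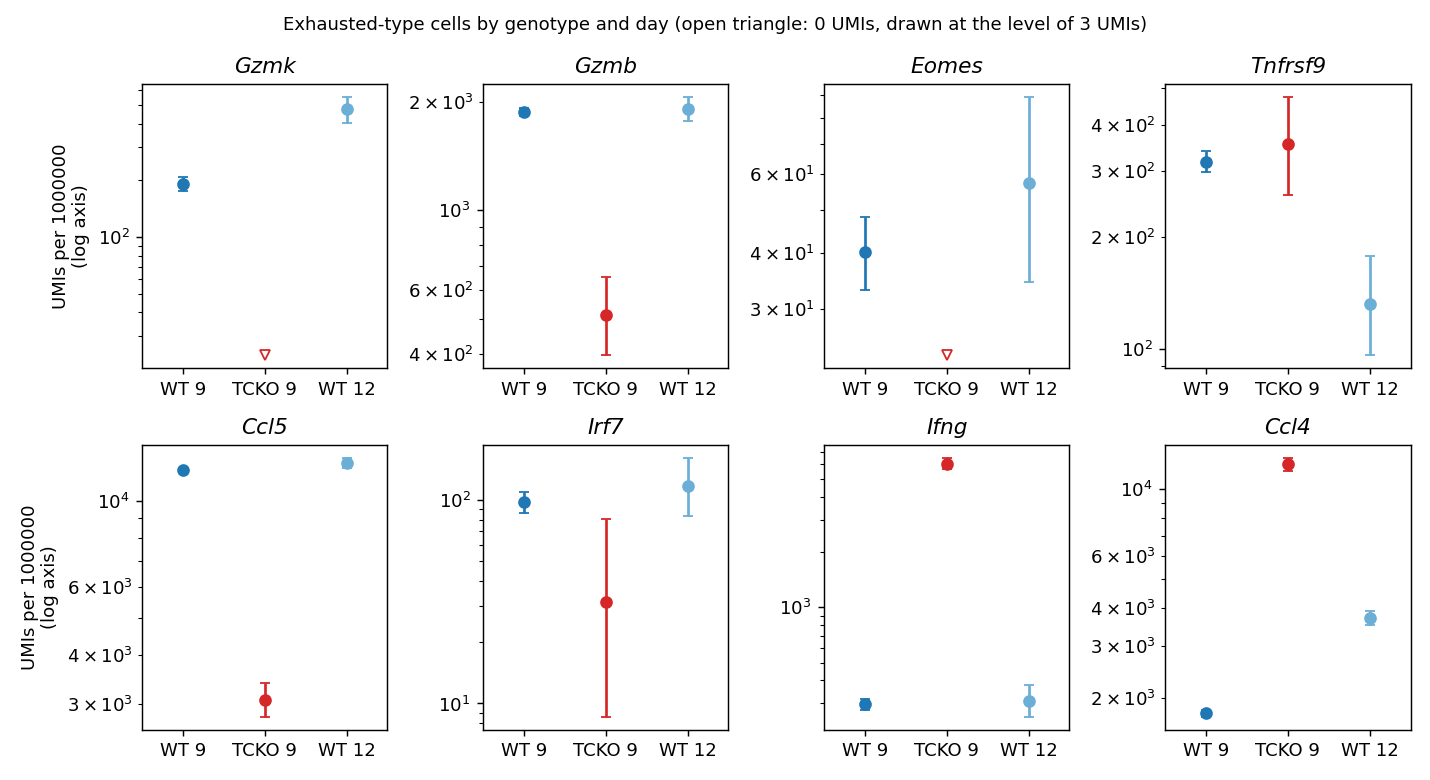
Level of 8 genes in exhausted-type cells in UMIs per 1000000 UMIs (y axis, log scale) by library (x axis), with 95% Poisson intervals; an open triangle stands for 0 UMIs at the level of 3 UMIs. Gzmk and Eomes are at 0 in knockout day 9, and the knockout points of Ifng and Ccl4 come mostly from 1 cell.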

How the data were processed

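Single cells were counted in 4 libraries. The authors deposited raw UMI counts per gene and barcode, made with Cell Ranger 2.0.2 on mm10 per the submitters' processing notes; the files pair 27998 gene IDs with symbols. Barcodes with at least 200 genes and at most 10% mitochondrial UMIs were kept, the rule was applied to raw UMIs, and counts were summed per class and library. In the thinned alternative the rule was applied anew to the thinned UMIs. Doublets were not removed in the main analysis; removal of the highest Scrublet scores (0.8% per 1000 barcodes) was an alternative and took 3, 0, 4 and 0 members (wild-type day 9, knockout day 9, wild-type day 12, knockout day 12). Scrublet's own threshold called 3, 16, 9 and 12 barcodes. Classes of cells were compared within libraries by edgeR 4.0.16 (TMM factors, filterByExpr, quasi-likelihood test, Benjamini-Hochberg adjustment over all genes, adjusted p 0.05), with libraries holding at least 10 cells of both classes. For the Havcr2 split this left 1 library, so the limit of 5 cells, planned as an alternative, was used. DESeq2 1.42.0 was an alternative. P-values rest in part on the spread between 2 or 3 pooled libraries and in larger part on spread shared across all genes tested. Residual degrees of freedom were 2 for the Gzmk comparison and 1 each for the cycling and Havcr2 comparisons. Those drawn from all genes tested had medians of 7.2, 54.7 and 20.8 in that order. A small p-value is therefore not evidence from many replicates. The edgeR code was tested on simulated data.

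Library pairs were described by ratios for genes with at least 20 UMIs; lists used 0.5 added UMIs, single genes the plain counts. Named were the genes of the rule, the 10 largest and 10 smallest called fold changes of each test, the 8 highest and 8 lowest ratios among genes with at least 50 UMIs, and genes of known role in exhaustion; Mt1, Nkg7, Gzma and other list members beyond these were picked after their values were seen. The members and the 15 gene lists were chosen with earlier results of these data known. List genes and classes were otherwise described by counts and medians. MicroRNA sequence came from RefSeq (GRCm38.p6), 3′ untranslated regions from GENCODE vM21; members were matched by symbol. Some results of single genes are not reported here.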

Additional observations from a re-analysis of the deposited data

How the results depend on the processing

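Shares of the members among CD8 T cells changed beyond counting error in wild-type day 9 after thinning (42.1%) and, with at least 2 Pdcd1 UMIs, in wild-type day 9 (30.9%) and wild-type day 12 (14.4%). As a share of all cells they came to 12.6% and 0.844% with 2 Pdcd1 UMIs, and to 0.162% in knockout day 9 after thinning. The order of the 4 libraries by share of CD8 T cells was the same after thinning except for the knockout libraries. The day 12 intervals of the genotypes overlapped after thinning. They also overlapped with at least 2 Pdcd1 UMIs (10.0% to 19.8% in wild-type, 0.055% to 11.5% in knockout).

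Against Gzmk-positive cells (16 higher, 19 lower) the counts were 85 and 62 with no filter on low counts, 3 and 0 with no library block, 0 and 1 after thinning, 37 and 40 without cells holding myeloid transcripts, and 4 and 2 without the member of each library with most cytokine UMIs, as without the one with most Gzmb and Ifng; 27 were higher without cells holding Foxp3 or Cd4 and 10 lower with at least 20 cells. Leaving out each library gave 6 to 19 higher and 2 to 31 lower, lowest without wild-type day 9. Against cycling cells DESeq2 gave 57 higher and 142 lower and the fit with no library block 18 and 149. Thinning, at least 20 cells and leaving out a library each left 1 library there and were not run. For the Havcr2 split (7 and 9), DESeq2 gave 2 and 1, no filter 17 and 22, no library block 0 and 0, thinning 2 and 5, the lower mitochondrial limit 14 and 17; 15 were higher without high doublet scores, 13 without myeloid transcripts, 2 without Foxp3 or Cd4 and 1 without the top cytokine member. Without the member with most Gzmb and Ifng UMIs 11 were higher and 20 lower. Leaving out a library was not run there.

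Genes at least 2-fold higher were 3.60% at day 12 with at least 50 UMIs, and in knockout members 11.4% with TMM factors and 27.6% after thinning. Turned in direction were Apoe (log2 0.079) and Lyz2 (0.098) in the Havcr2 split and Cxcl16 (-1.44) at day 12 with high doublet scores removed, Fabp5 (0.42) in the Havcr2 split and Cd74 (1.33) in knockout members without myeloid transcripts, and Ifng (-2.21) in knockout members after thinning. The cause was not tested. No paired analysis was possible because each group has 1 library, so the replicate numbers pair nothing. The knockout members, 13 cells at day 9 and 1 at day 12, limit every statement on genotype.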
